A study of Homo sapiens with 8 samples.

Results

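The 9 genes described here encode enzymes that spend S-adenosylmethionine (SAM) on small molecules or on the ends and damaged side chains of proteins: GAMT, PEMT, NNMT, TPMT, ASMTL, LCMT1, NTMT1, ICMT and PCMT1. They were chosen by name as SAM-consuming enzymes outside the histone, DNA and RNA methyltransferases, and each matched 1 Ensembl identifier among the 57500 genes of the count table. HEK293T, a human embryonic kidney cell line carrying the SV40 large T antigen, was treated for 48 h with 100 µM DZNep (3-deazaneplanocin A), an adenosine analog that inhibits AHCY. The Control cells of the same line received vehicle, and each group held 4 libraries numbered as replicates 1 to 4. All libraries thus come from a single transformed cell line, and the sample labels give DMEM as the medium where the paper's methods give RPMI. RNA was sequenced from bulk cells, so that fewer expressing cells and less RNA per cell cannot be told apart.

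Each of these enzymes transfers the methyl group of SAM to its substrate and releases S-adenosylhomocysteine (SAH), which AHCY cleaves and which inhibits many methyltransferases when it builds up. GAMT makes creatine from guanidinoacetate, and PEMT converts phosphatidylethanolamine to phosphatidylcholine in the endoplasmic reticulum. These are known as large consumers of SAM in liver. NNMT methylates nicotinamide, and TPMT methylates thiopurine drugs. ASMTL joins a nucleotide pyrophosphatase domain to a methyltransferase-like domain whose substrate is not established. LCMT1 methylates the C-terminal leucine of the protein phosphatase PP2A, ICMT the prenylated C-terminal cysteine of CAAX proteins such as lamins, and NTMT1 the N terminus of proteins such as RCC1. PCMT1 methylates isoaspartyl residues, which arise in aging proteins, as the first step of their repair.

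Libraries held between 25043058 and 44902779 counts, with Control replicate 1 the shallowest. The mitochondrial share of counts was 3.02% to 13.7%. All 9 genes of a marker list for HEK293T had at least 10 counts in every library. Of 7 markers of other cell types, 4 also had at least 10 counts in every library, and the highest count in that list was 5163. CD3E had no count in the 4 Control libraries and up to 36 counts with DZNep. Only 5 of the 7 entered the test described below, and CD3E was not among them. The summed list ranged from 2484 to 4711 normalized counts in the Control and from 2566 to 5020 in the DZNep libraries. A normalized count is the count divided by the size factor of its library. Differences were tested on the counts with edgeR's quasi-likelihood test over the 19171 genes that passed its expression filter, and a gene passed at a Benjamini-Hochberg adjusted p-value under 0.05. The study's own calls also require an absolute log2 fold change over 1.

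All 9 transcripts passed the expression filter. PEMT and GAMT fell, and both passed the fold change threshold as well. At these thresholds 13.5% of all genes tested were lower and 10.6% were higher, against 2 lower and 0 higher of the 9. None of the 9 was higher at an unadjusted p under 0.05 in edgeR, and DESeq2 and limma also found 0. The other 7 did not pass in this test of treatment alone, while 40.8% of all genes tested passed in either direction. With a block for replicate number, 3 of the 9 were lower and 0 higher, where 30.2% and 28.8% of all genes tested were. The log2 fold changes of the 9 had a median of -0.21, and those of all genes tested had a median of -0.03. Only PEMT separated the groups completely, with every DZNep library below every Control library, a pattern that 19.4% of the genes tested showed.

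**Figure D1:**
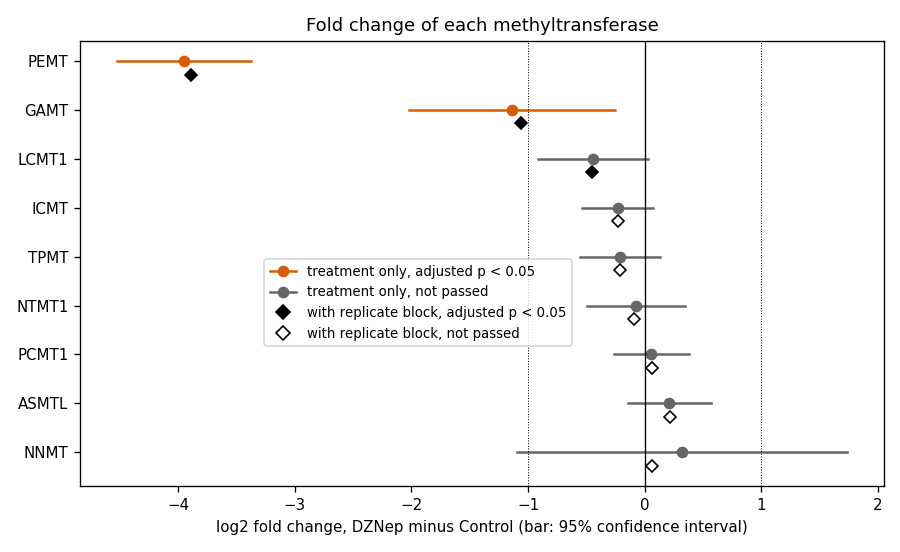
Log2 fold change of the 9 transcripts, DZNep minus Control, on the horizontal axis. Circles with bars give the estimate and its 95% confidence interval from edgeR's fit with treatment alone, diamonds the estimate with a block for replicate number, and dotted lines an absolute log2 fold change of 1. PEMT lies at -3.95 and GAMT at -1.14, and the intervals of the other 7 include 0.

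PEMT (ENSG00000133027, chromosome 17 of GRCh38 from 17505563 to 17591708, minus strand) showed the largest change of the 9. Its normalized counts were 1657, 847, 1213 and 1830 in Control replicates 1 to 4. In DZNep replicates 1 to 4 they were 96.1, 87.0, 81.2 and 101. The Control libraries thus differed among themselves up to 2.16-fold, while the DZNep libraries lay close together, with 1.25-fold between the highest and the lowest. The mean fell from 1387 ± 444 to 91.4 ± 9.004 (SD, n = 4 each). On the log2 scale the difference was -3.95 ± 0.26 (SE), and edgeR gave an adjusted p-value of 7.58e-06. This is a 15.5-fold decrease with a 95% confidence interval from 10.4-fold to 23.1-fold. Set against the Control library of its number, each DZNep library kept 5.80%, 10.3%, 6.69% and 5.53% of the Control level. Of the 19171 genes tested, 43 had a lower log2 fold change. Raw counts ranged from 90 to 1703, so counting error was small beside the change.

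RefSeq lists 3 transcription start sites for PEMT, and the counts per gene sum over all of them. The 250 bases upstream of each start (RefSeq promoter table, build GRCh38.p14, minus strand, written 5′ to 3′) are printed because PEMT carried the main change. Capitals mark matches to the GC box GGGCGG and the E-box CACGTG on either strand. The letters CCAAT and TATAAA were also searched for and had no match in these windows.
PEMT, chr17:17591709-17591958: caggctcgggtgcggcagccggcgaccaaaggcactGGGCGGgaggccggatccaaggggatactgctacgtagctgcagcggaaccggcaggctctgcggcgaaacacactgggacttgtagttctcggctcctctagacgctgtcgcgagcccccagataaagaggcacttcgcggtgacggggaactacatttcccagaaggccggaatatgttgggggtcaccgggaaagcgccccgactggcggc
PEMT, chr17:17582447-17582696: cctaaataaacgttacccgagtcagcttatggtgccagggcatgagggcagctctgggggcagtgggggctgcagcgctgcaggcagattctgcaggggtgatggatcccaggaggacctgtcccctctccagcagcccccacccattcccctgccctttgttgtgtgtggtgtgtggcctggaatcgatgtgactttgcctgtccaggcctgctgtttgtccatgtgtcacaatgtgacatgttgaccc
PEMT, chr17:17577497-17577746: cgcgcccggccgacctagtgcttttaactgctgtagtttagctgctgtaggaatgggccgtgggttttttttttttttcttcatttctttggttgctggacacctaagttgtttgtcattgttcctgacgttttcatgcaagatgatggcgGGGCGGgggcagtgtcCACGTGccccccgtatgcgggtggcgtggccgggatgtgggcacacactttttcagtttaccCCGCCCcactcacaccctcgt
The first window lies directly upstream of the annotated gene, and the others lie within it. They held 23, 4 and 15 CpG dinucleotides, against a median of 11 over 34961 promoters. A GC box was present in 42.7% of all these promoters, an E-box in 6.35%, a CCAAT match in 31.97% and a TATAAA match in 10.7%. Over 14 windows of the 7 members with an entry, 11 had a GC box, 2 an E-box, 1 a CCAAT match and 0 a TATAAA match. TPMT and ICMT had the most CpG dinucleotides, up to 37 and 32 in a window, and 1 of 3 NTMT1 windows had 4. GAMT and NNMT were not matched. The lncRNA ENSG00000264666 on the opposite strand overlaps 10.3% of the PEMT exonic bases and had between 1 and 9 counts in a library.

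The 3 nearest tested genes on either side of PEMT were chosen after the PEMT values were seen. MED9, a subunit of Mediator, had a log2 fold change of -0.04 and RASD1 of 0.22, with adjusted p-values from edgeR of 0.867 and 0.749. RAI1 (-0.40, adjusted p = 0.0643 from edgeR) and TOM1L2 (-0.27) did not pass, nor did the pseudogene RPL13P12 (-0.25). SREBF1, which encodes a transcription factor of lipid synthesis, was the only one that passed, and it rose by 0.91 on the log2 scale (SE 0.14, edgeR adjusted p = 0.000546). None of the 6 neighbors was lower at the test's threshold. By correlation of log2 CPM over the 8 libraries, CENPH, a kinetochore protein (r = 0.998), and BIVM (r = 0.997) had the pattern most like PEMT among 13556 other genes, of which 62 exceeded 0.99. The points are the same 8 libraries in 2 groups, so that a difference between the groups alone can give a high r.

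GAMT (ENSG00000130005, chromosome 19 from 1397026 to 1401570, minus strand) was lower by a smaller amount and against a wide spread. Its normalized counts were 4227, 1841, 2176 and 5996 in Control replicates 1 to 4. They were 1685, 1037, 1302 and 2584 in DZNep replicates 1 to 4. The groups overlapped, since the highest DZNep library, replicate 4, lay above Control replicates 2 and 3. The mean fell from 3560 ± 1936 to 1652 ± 676 (SD, n = 4 each). On the log2 scale the difference was -1.14 ± 0.40 (SE), and edgeR gave an adjusted p-value of 0.0425. The 95% confidence interval of the log2 fold change reached from -2.02 to -0.25.

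The spread of GAMT followed the replicate numbers. In both groups replicates 1 and 4 were highest, and their mean was 2.55 times that of replicates 2 and 3 in the Control and 1.83 times with DZNep. The mitochondrial share was also highest in replicates 1 and 4, with 7.76% and 13.7% in the Control and 7.04% and 10.1% with DZNep. It was between 3.02% and 4.44% in replicates 2 and 3 of both groups, and its part in the GAMT level was not tested. Within pairs of the same number, the DZNep library held 39.9%, 56.3%, 59.8% and 43.1% of the Control level, lower in 4 of 4 pairs. Blocking on replicate number gave -1.06 (adjusted p = 4.97e-06). Replicates 1 and 4 alone gave -1.25 (edgeR adjusted p = 0.00146), and replicates 2 and 3 alone gave -0.82 (0.00171).

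Without the block, the GAMT call was lost when any of 5 libraries was left out. The adjusted p-value of edgeR was then 0.0934 without Control replicate 1, 0.107 without Control replicate 4, and 0.0940, 0.113 and 0.113 without DZNep replicates 1, 2 and 3. The log2 fold change stayed below 0 in each case and was closest to it without Control replicate 4, at -0.77. Of the 6 tested neighbors of GAMT, chosen after its values were seen, DAZAP1, an RNA-binding protein, fell by 1.32 on the log2 scale (edgeR adjusted p = 0.000195), while the lncRNA ENSG00000268798 rose by 2.58 (edgeR adjusted p = 8.71e-05). NDUFS7 and RPS15 had log2 fold changes of -0.27 and -0.37 and did not pass. The genes most like GAMT over the 8 libraries were CST3, the protease inhibitor cystatin C (r = 0.999), and RPL19, a ribosomal protein (r = 0.997). The same 8 libraries in 2 groups underlie these values too. RPL19 had 57833 ± 30035 normalized counts in the Control and 27714 ± 11246 with DZNep (SD, n = 4 each).

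**Figure D2:**
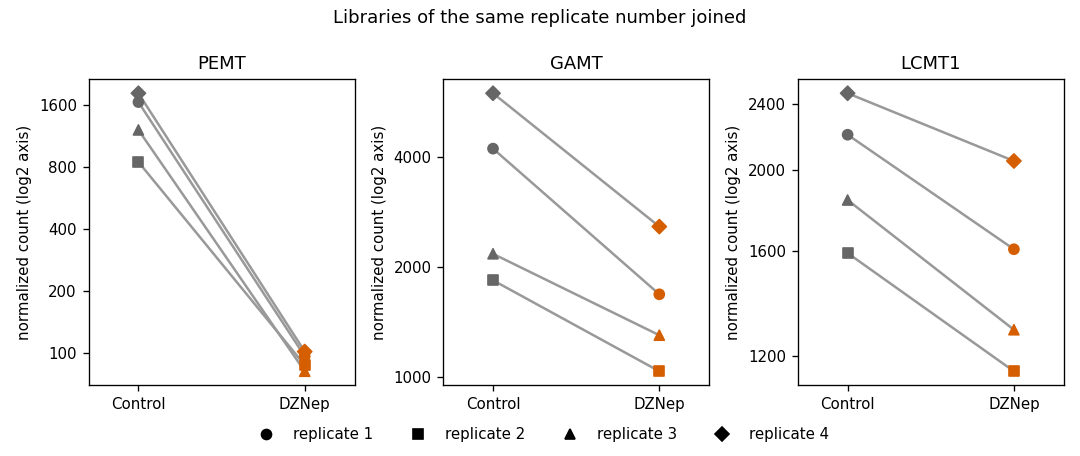
Normalized counts of PEMT, GAMT and LCMT1 on a log2 axis, with Control libraries in grey, DZNep libraries in orange, and a line joining the libraries of the same replicate number. All 12 lines go down. PEMT converges on 81.2 to 101 with DZNep, whereas GAMT and LCMT1 keep the order of the replicates.

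The remaining small-molecule enzymes did not pass. TPMT (ENSG00000137364, chromosome 6 from 18128311 to 18155077) had 3186, 2871, 2712 and 3503 normalized counts in Control replicates 1 to 4. With DZNep it had 2858, 2292, 2496 and 3181. It was lower in 4 of 4 pairs, by between 0.12 and 0.32 on the log2 scale, but the groups overlapped. Its log2 fold change was -0.21, with a 95% confidence interval from -0.55 to 0.13 (edgeR adjusted p = 0.307).

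ASMTL (ENSG00000169093, chromosome X from 1403139 to 1453762) went the other way. It had 1895, 1454, 1770 and 2178 normalized counts in Control replicates 1 to 4 and 2195, 1931, 1993 and 2502 in the DZNep libraries. The DZNep library was higher in 4 of 4 pairs, at 113% to 133% of the Control level, although the groups overlapped and the 95% confidence interval of the log2 fold change reached from -0.14 to 0.57. The block did not change the call (adjusted p = 0.102). ASMTL lies in the pseudoautosomal region of the X chromosome, and 6.42% of its exonic bases overlap the antisense ASMTL-AS1, which had at most 84 counts in a library.

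NNMT (ENSG00000166741, chromosome 11 from 114257787 to 114313536) had the lowest counts of the 9. It had 23, 15, 24 and 26 counts in Control replicates 1 to 4 and 60, 4, 29 and 37 in the DZNep libraries. After division by the size factors, the DZNep libraries spread 16.9-fold, from 3.22 in replicate 2 to 54.4 in replicate 1. The groups overlapped, and the 95% confidence interval of its log2 fold change reached from -1.09 to 1.74. The sign of the estimate turned when DZNep replicate 1 was left out, from 0.32 to -0.09.

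LCMT1 (ENSG00000205629, chromosome 16 from 25111731 to 25178231) was the only gene of the 9 whose call changed with the replicate block. It had 2206, 1592, 1843 and 2473 normalized counts in Control replicates 1 to 4. With DZNep the values were 1609, 1149, 1289 and 2052. The DZNep library held 72.9%, 72.2%, 69.9% and 83.0% of the Control library of its number, so that the ratio varied much less than the level. The test with treatment alone did not pass (log2 fold change -0.44, 95% confidence interval from -0.91 to 0.03, edgeR adjusted p = 0.124), while the block gave -0.45 ± 0.11 (SE) and an adjusted p-value of 0.00266. It also passed without DZNep replicate 4, with -0.61 and 0.0366, and over replicates 2 and 3 alone, with -0.53 and 0.0137. The absolute change stayed under 1 in each.

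NTMT1 (ENSG00000148335, chromosome 9 from 129608884 to 129636135) had 1896, 1671, 1419 and 2044 normalized counts in the Control and 1632, 1548, 1353 and 2280 in the DZNep libraries. The pairs went both ways, with 3 lower and 1 higher, and the 95% confidence interval of the log2 fold change was -0.49 to 0.35. On the opposite strand, ASB6 overlaps 30.6% of the NTMT1 exonic bases and had between 988 and 3176 counts, and strandedness is not given in the sources used here. The NTMT1 value is uncertain to that extent.

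ICMT (ENSG00000116237, chromosome 1 from 6221193 to 6235972), the enzyme of the third step of CAAX processing, was among the higher of the 9 in every library. It had 7967, 9413, 9149 and 7531 normalized counts in Control replicates 1 to 4 and 7347, 7748, 6911 and 7587 with DZNep. Here replicates 2 and 3 were the highest of the Control, the reverse of GAMT. The log2 fold change was -0.23 with a 95% confidence interval from -0.53 to 0.07 (edgeR adjusted p = 0.207), and of 18 alternatives it passed in 1, over replicates 2 and 3 alone (-0.38, adjusted p = 0.0396).

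PCMT1 (ENSG00000120265, chromosome 6 from 149749444 to 149811420) had 6643, 7582, 7770 and 5727 normalized counts in the Control and 7211, 7585, 6883 and 7712 in the DZNep libraries. The ranges lay over each other, and its 95% confidence interval was among the narrower of the 9, from -0.26 to 0.38 around a log2 fold change of 0.06. The pairs ranged from 88.6% of the Control level in replicate 3 to 135% in replicate 4. NUP43, on the opposite strand, overlaps 7.84% of the PCMT1 exonic bases and had between 2822 and 6593 counts in a library. Strandedness is not given, so the PCMT1 value is uncertain to that extent.

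**Figure D3:**
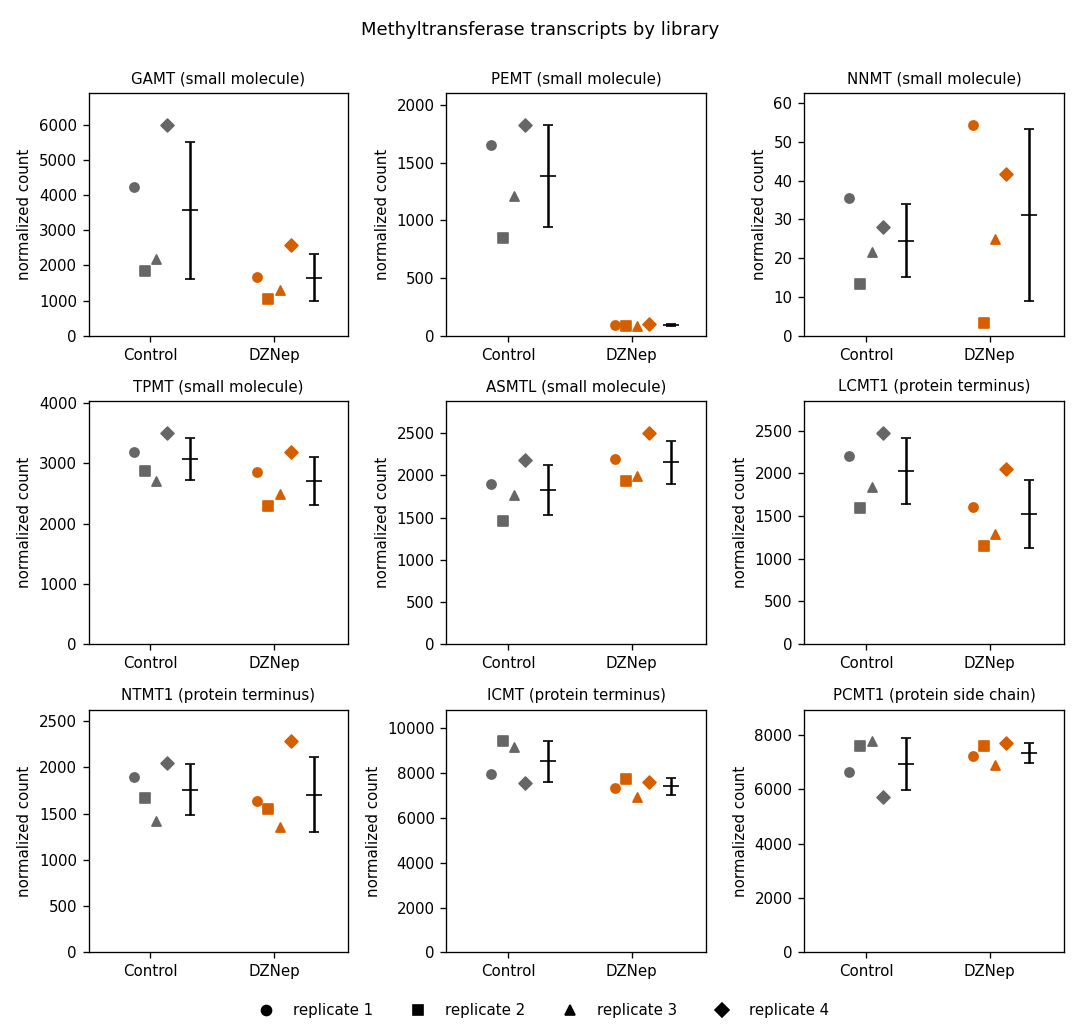
Normalized counts of the 9 transcripts in each library, in 1 panel per gene with a linear axis from 0. Grey symbols are Control and orange symbols DZNep libraries, the symbol shape gives the replicate number, and the bar beside each group is the mean with its SD (n = 4). The PEMT panel alone shows groups that do not overlap.

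To compare levels between genes, normalized counts were divided by the exonic length of the gene in kilobases. In the Control, PCMT1 was highest with 2448 ± 333 per kb (SD, n = 4), followed by ICMT with 1734 ± 185, and the ranges of these 2 did not overlap. GAMT (1481 ± 806), TPMT (964 ± 110), PEMT (806 ± 258), LCMT1 (779 ± 149), NTMT1 (580 ± 90.02) and ASMTL (520 ± 85.5 per kb) followed, and each overlapped its neighbor in this order. NNMT was far below with 9.46 ± 3.62 per kb. With DZNep, PEMT moved from the fifth to the eighth place, at 53.1 ± 5.24 per kb, below ASMTL, LCMT1 and NTMT1 without overlap. Among all 18978 tested genes with a length, the PEMT level went from above 89.2% of genes to above 40.4%, and that of GAMT from above 94.6% to above 86.2%.

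Beyond the 9 genes, 18 further small-molecule and protein-terminus methyltransferases and relatives were matched and 16 were tested. Of these, 4 were lower and 2 were higher at an adjusted p-value under 0.05, which 21.8% and 19.1% of all genes tested were. Among the 11 small-molecule enzymes, COMTD1, a protein related to catechol O-methyltransferase, had means of 1622 ± 637 and 378 ± 101 normalized counts (SD, n = 4 each) and fell by 2.13 on the log2 scale (edgeR adjusted p = 0.00037). COQ3, which methylates precursors of coenzyme Q, had means of 1280 ± 136 and 561 ± 111 (SD, n = 4 each) and fell by 1.22 (edgeR adjusted p = 0.000366). HNMT, the histamine N-methyltransferase, had means of 33.2 ± 6.71 and 101 ± 17.6 (SD, n = 4 each) and rose by 1.58 (edgeR adjusted p = 0.000738). In these 3 genes the groups did not overlap, nor did they in TMT1B, AS3MT and PCMTD1. Of all genes tested, 19.4% had every DZNep library below every Control library, and 19.5% had every one above. The other 5 were protein-directed enzymes or their relatives, among them LCMT2, a relative of LCMT1 that acts on tRNA. Of these 5, PCMTD2, a relative of PCMT1, was the only one that passed, with a log2 fold change of -0.61 (edgeR adjusted p = 0.0289), and 0 were higher (1 at an unadjusted p under 0.05, 0 with DESeq2 and limma). With the replicate block, 6 of the 16 were higher and 6 were lower, where 28.8% and 30.2% of all genes tested were. METTL13, which methylates elongation factor eEF1A, was among those gained (adjusted p = 3.77e-05, from 0.0822 without the block). The 4 lower genes became 2 without Control replicate 3, DZNep replicate 1 or DZNep replicate 2, and the 2 higher became 4 without Control replicate 4. INMT and ASMT had at most 5 and 3 counts in a library and were not tested.

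No pathway list was made for ASMTL or PCMT1. The enzymes and substrates next to the other genes of the 9 formed 8 lists of 71 genes, all tested. Of these 71 genes, 15 were lower and 13 were higher. These shares, 21.1% and 18.3%, lay near the 21.8% and 19.1% of all genes tested. With the replicate block, 21 were lower and 20 were higher, where 30.2% and 28.8% of all genes tested were. By list, those lower and higher were 5 and 1 around PEMT, 1 and 1 around GAMT, and 4 and 3 around NNMT. They were 4 and 2 around TPMT, 0 and 5 around LCMT1, and 5 and 1 around NTMT1. Around ICMT they were 2 and 3 for CAAX processing and 0 and 4 for its substrates.

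Around PEMT, 13 genes of phosphatidylcholine and phosphatidylethanolamine synthesis gave 4 lower and 0 higher (0 at an unadjusted p under 0.05, 0 with DESeq2 and limma), with a median log2 fold change of -0.28. Of all genes tested, 21.8% were lower and 19.1% were higher. PTDSS2, which makes phosphatidylserine from phosphatidylethanolamine, had 2704, 2315, 2598 and 2851 normalized counts in Control replicates 1 to 4 and 530, 501, 431 and 501 with DZNep. It fell by 2.44 ± 0.14 (SE) on the log2 scale (edgeR adjusted p = 4.59e-06). PCYT2 and ETNK1, both of the CDP-ethanolamine route to phosphatidylethanolamine, fell by 0.72 and 0.89 on the log2 scale (edgeR adjusted p = 0.00607 and 0.0231). Genes of the choline branch went both ways. CHPT1 fell by 0.52 on the log2 scale (edgeR adjusted p = 0.0183, and 0.00146 with the block). PCYT1A had a log2 fold change of 0.45 and did not pass with treatment alone (adjusted p = 0.121), but rose with the block (0.00389). CHKA, CHKB and PCYT1B passed in neither fit.

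Around GAMT, 0 of 7 creatine genes passed in either direction with edgeR (0 at an unadjusted p under 0.05), where 40.8% of all genes tested did. DESeq2 and limma also found 0 of the 7. Named after their values were seen, GATM, which makes the substrate of GAMT, had 29.2 ± 5.16 and 17.6 ± 9.88 normalized counts (SD, n = 4 each), and the brain-type creatine kinase CKB had 46413 ± 11519 and 35112 ± 10050 (SD, n = 4 each). CKB passed with the block (log2 fold change -0.44, adjusted p = 0.00496), as did CKM (0.89, adjusted p = 0.0471), with opposite signs. CKMT1A and CKMT1B are near-identical copies, and their separate values are uncertain.

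Around NNMT, 3 of 10 genes of nicotinamide and NAD metabolism were lower and 2 were higher, where 21.8% and 19.1% of all genes tested were. AOX1, an aldehyde oxidase that oxidizes N-methylnicotinamide, the product of NNMT, had 6.17, 4.46, 3.58 and 7.52 normalized counts in Control replicates 1 to 4 and 48.1, 41.9, 48.4 and 40.5 with DZNep. It rose by 3.01 ± 0.33 (SE) on the log2 scale (edgeR adjusted p = 9.54e-05). The nicotinamide riboside kinases went opposite ways, with NMRK1 lower (506 ± 85.1 in the Control, 124 ± 30.03 with DZNep) and NMRK2 higher (5.21 ± 3.52 and 27.7 ± 15.5, SD, n = 4 each, in normalized counts). NMRK2 had no count in Control replicate 3. AOX1 and NMRK2 are the 2 higher genes of the list. Both were under 10 normalized counts in the Control and passed the expression filter only through the DZNep libraries. The size of their rise therefore rests on few Control counts. Of 7 genes of thiopurine metabolism around TPMT, 3 were lower and 2 were higher. IMPDH2, of guanine nucleotide synthesis, and HPRT1, the purine salvage enzyme that activates thiopurines, fell by 1.30 and 1.09 on the log2 scale, and XDH rose by 1.07 (edgeR adjusted p = 6.39e-05, 0.00305 and 0.0227).

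Around LCMT1, 5 of 10 genes for PP2A subunits and regulators were higher and 0 lower (0 also at an unadjusted p under 0.05, with DESeq2 and with limma), and the median log2 fold change was 0.30. Of all genes tested, 19.1% were higher and 21.8% lower, and the list was not tested as a set. PPP2CA, the catalytic subunit whose C terminus LCMT1 methylates, had 7017, 7312, 6852 and 7451 normalized counts in Control replicates 1 to 4. With DZNep it had 13593, 10874, 10566 and 13844, and the groups did not overlap. It rose by 0.74 ± 0.15 (SE) on the log2 scale (edgeR adjusted p = 0.00277). One scaffold subunit, PPP2R1B, and a regulatory subunit, PPP2R2A, rose by 0.89 and 0.78 on the log2 scale (edgeR adjusted p = 0.0154 and 0.0402). The other scaffold subunit, PPP2R1A (0.04), and the regulatory subunit PPP2R2D (0.06) did not pass (edgeR adjusted p = 0.858 and 0.808). PPME1, the esterase that removes the methyl group, had a log2 fold change of -0.14 (95% confidence interval from -0.45 to 0.16). PPP2R1A, PPP2R2D and PPME1 were named after their values were seen.

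Around ICMT, 2 of 7 genes of CAAX processing were lower and 2 were higher, where 21.8% and 19.1% of all genes tested were. FNTB, the beta subunit of farnesyltransferase, and RCE1, the protease that acts just before ICMT, rose by 0.90 and 0.85 on the log2 scale (edgeR adjusted p = 0.000869 and 0.00092), and PCYOX1L, a prenylcysteine oxidase-like protein, fell by 1.11 (edgeR adjusted p = 0.000282). FNTA, the alpha subunit of farnesyltransferase, went the opposite way to FNTB, with a log2 fold change of -0.58 (edgeR adjusted p = 0.0164). It was named after its value was seen. Of 7 CAAX substrates, only LMNA passed with treatment alone, and it rose by 0.92 on the log2 scale. It had 3839 ± 1189 normalized counts in the Control and 7412 ± 1482 with DZNep (SD, n = 4 each). With the replicate block, 4 of the 7 were higher, where 28.8% of all genes tested were. None was lower (0 also by edgeR at an unadjusted p below 0.05, by DESeq2 and by limma). Around NTMT1, 3 of 10 substrates and methionine aminopeptidases were lower and 1 was higher. RPL12 and CENPB fell by 1.14 and 0.86 on the log2 scale, and CENPA rose by 0.55 (edgeR adjusted p = 0.0228, 0.00479 and 0.0122). The spread of the RPL12 level in the Control libraries, from 32344 to 85310 normalized counts, had its highest values in replicates 1 and 4, as did GAMT.

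**Figure D4:**
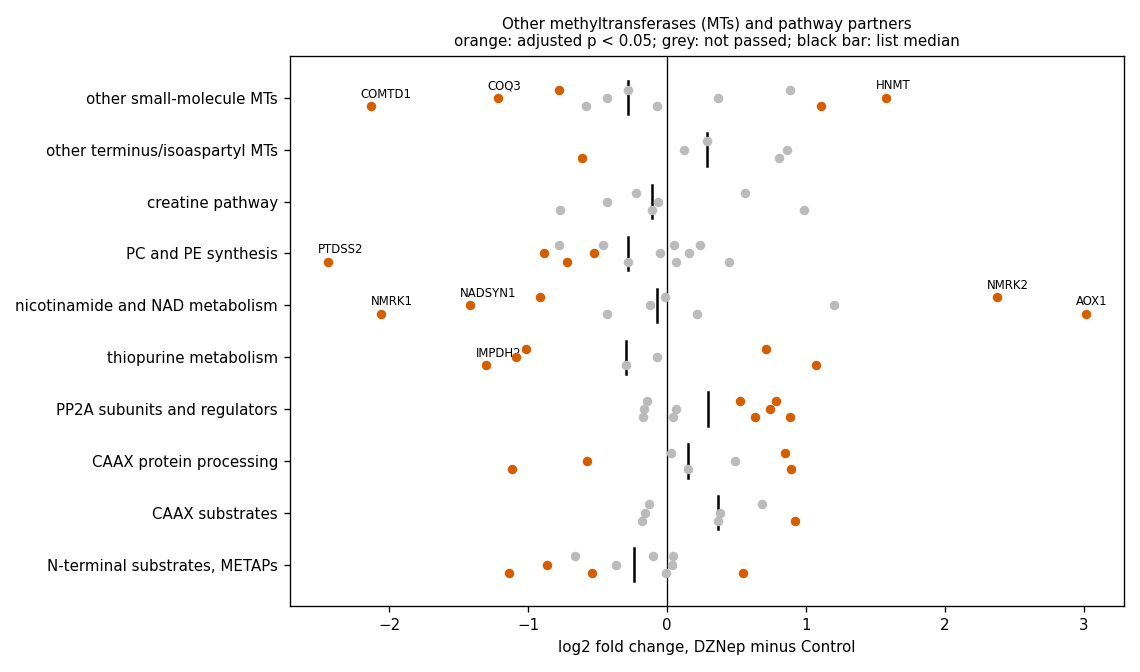
Log2 fold change, DZNep minus Control, of every tested gene in the 2 lists of further methyltransferases (MTs) and the 8 pathway lists. Orange points passed at an adjusted p-value under 0.05 with edgeR, grey points did not, and the black bar is the median of the list. PTDSS2 at -2.44 and AOX1 at 3.01 are the extremes.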

How the data were processed

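RNAseq was measured in 8 HEK293T libraries, 4 per treatment, grouped by the labels. Per the methods and labels, reads were paired and 150 bp long, trimming was done by Trimmomatic 0.36, alignment to GRCh38 by STAR 2.5.2b, and exonic counting of unique reads by featureCounts (Subread 1.5.2). Annotation release, library type and strandedness are not given in the sources used here. The authors deposited the counts without normalization for 57500 genes. They also deposited a signal, the normalized counts of 19118 genes, which equal counts divided by 1 size factor per library (checked for every value). Other normalized counts used the same size factors. Gene identifiers were matched to GENCODE v44 symbols for 56410 genes, and coordinates and exonic lengths come from that annotation of GRCh38. TOMT was not matched, and TMT1A and TMT1B were matched through RefSeq synonyms.

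Tests used R 4.3.3 and edgeR 4.0.16 (TMM, filterByExpr, quasi-likelihood test, Benjamini-Hochberg adjustment over 19171 genes), with standard errors from the fold change and its F statistic. The scripts were tested on simulated data. Alternatives were DESeq2 1.42.0, limma 3.58.1 on log2(normalized count + 1), other normalizations and filters, a replicate block, leaving out each library, replicates 1 and 4 or 2 and 3 alone, and other thresholds. Pairs of libraries of a group differed by more than sampling noise (chi-square per degree of freedom of at least 23.9). Deviations from the group means were correlated over genes between same-numbered libraries of both groups, at 0.14, 0.49, 0.43 and 0.67 for replicates 1 to 4. With libraries of other numbers the mean correlations were -0.07, -0.11, -0.09 and -0.29. The sample titles number the libraries but state no pairing, so the block on number was an alternative. Blocked values are given for the changed call of LCMT1 and of some listed genes, and blocked counts for every list. The main test used treatment alone. The paper calls the replicates biological.

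The 9 genes and the other lists were chosen with earlier results of these data known, and lists were written from general knowledge. In each list, up to 3 passing genes with the largest absolute log2 fold change are named, with the 2 genes of highest correlation for each gene past both thresholds (average log2 CPM of at least 1). Any other gene was named with its value known. Intervals cover these 8 libraries only. Values of some single genes of the CAAX substrate list are not reported here.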

Additional observations from a re-analysis of the deposited data

How the results depend on the processing

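PEMT passed under all 18 alternatives, with log2 fold changes from -4.13 to -3.65. GAMT was lower under all 18 and passed under 11, with log2 fold changes from -1.43 to -0.77. It did not pass with limma (-1.03, adjusted p = 0.061) or with at least 10 counts in every library (-1.11, 0.0535), besides the 5 libraries named above. TPMT, ASMTL, NTMT1 and PCMT1 passed under none of 18 and NNMT under none of 17, since it could not be fitted with at least 10 counts in every library.

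Of the 9 genes, 1 was lower with limma, with at least 10 counts in every library, at an adjusted p under 0.01 and with glmTreat against a log2 fold change of 1, and the number also past the fold threshold was 1 there too. Over replicates 2 and 3 alone these numbers were 4 and 1. With each library left out, they ranged from 1 to 3 and from 1 to 2. The replicate block changed the call of LCMT1 and of no other gene of the 9, with 3 lower.

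Of the further methyltransferases, 5 were higher over replicates 2 and 3 alone, 2 were lower at an adjusted p under 0.01, and 1 was higher and 1 lower with glmTreat. With each library left out, 2 to 4 were higher and 2 to 4 lower, and with the replicate block 6 were higher. Of the pathway genes, 5 were higher and 9 lower at an adjusted p under 0.01, 1 and 3 with glmTreat, 11 to 18 and 10 to 14 with each library left out, and 20 were higher with the replicate block. Counted past both thresholds (adjusted p and fold change), over all genes 2041 were higher and 2589 lower. With at least 10 counts in every library 1141 were higher, glmTreat called 942 higher and 1066 lower, and leaving out each library gave 1936 to 2383 higher and 2322 to 2993 lower. At an adjusted p under 0.01 they were 1645 and 2064, and over replicates 2 and 3 alone 2311 and 2346. Apart from the replicate block and glmTreat, all genes were not counted on the adjusted p alone under these alternatives. The list counts there have no like share of all genes beside them.

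Signs turned for transcripts that did not pass. NNMT was -0.10 with limma, -0.087 without DZNep replicate 1 and -0.35 over replicates 2 and 3 alone. NTMT1 was 0.0036 with library size alone, 0.0024 over replicates 1 and 4 alone, 0.00097 without Control replicate 4 and 0.029 without DZNep replicate 3. PCMT1 was -0.031 without Control replicate 4 and -0.12 over replicates 2 and 3 alone. With each library left out, NNMT ranged from -0.087 to 0.714, NTMT1 from -0.238 to 0.029 and PCMT1 from -0.031 to 0.112. The cause was not tested. Depth was lowest for NNMT, with 4 counts in the lowest library. In Control replicate 1, 0 counts leave room for 1.2e-05% of the library (3 counts, counting error only).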
